A study of Homo sapiens with 18 samples.

Results

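The question asked of HUDEP1 cells, an immortalised line of human erythroid progenitors, was where the switch from growth to differentiation changed gene expression differently with GATA1s than with full-length GATA1. The values came from 18 stranded poly(A) RNA libraries, all the libraries of the series, in 6 groups of 3. At day 4 of differentiation the groups were the GATA1s clones 1D5 and 1KI9 and the clone FL, which carries full-length GATA1. The same 3 clones were sampled in expansion. Day-4 cells were kept in IMDM with 2% fetal bovine serum, 3% human AB serum, 10 µg/mL insulin, 3 U/mL heparin, 1 mg/mL holo-transferrin, and the factors EPO at 3 U/mL and SCF at 50 ng/mL (erythropoietin and stem cell factor), with doxycycline at 1 µg/mL. Expansion cells were kept in SFEM II, where EPO, SCF and doxycycline were dosed as at day 4 and dexamethasone was added at 1 µM. HUDEP lines are kept growing by papillomavirus genes that doxycycline turns on, so these genes were on in all 6 groups by design. Full-length GATA1 is represented by 1 clone, so its genotype cannot be told apart from what is particular to that clone. Nothing in the labels says whether the 3 replicates of a group were separate cultures, so the p-values measure only the spread between these libraries, which may be technical.

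GATA1 is the zinc finger transcription factor that turns on the red cell programme, including the genes for globins, heme synthesis and the red cell membrane, and that turns off progenitor genes such as GATA2 and KIT. GATA1s, made from an internal start codon, keeps both zinc fingers and lacks the N-terminal transactivation domain. It is the form left by the GATA1 mutations of Down syndrome leukaemia and of some inherited anaemias. In culture, erythroid progenitors that are moved to differentiation medium normally stop dividing, fill with hemoglobin and lose progenitor and biosynthetic transcripts.

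For each gene the interaction was the log2 day-4 minus expansion change in a GATA1s clone minus the same change in FL, on log2(value + 1). A positive interaction therefore means that the gene rose more, or fell less, at day 4 with GATA1s than with FL. It says nothing alone about the level at day 4. A gene was counted where the interaction passed an adjusted p of 0.05 with the same sign in both clones (limma, Benjamini-Hochberg over all 11015 genes tested). Genes whose expansion mean was under 1 in any clone were set aside as near 0, which left 9792 of the 11015. Of these 9792, 4744 genes (48.4%) were counted. The interaction was higher in both GATA1s clones for 3510 genes (35.8% of the 9792) and lower in both for 1234 (12.6%). Both clones were set against the same FL libraries, so agreement between them is partly built in.

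That split rests on the scale of the libraries. When all libraries were rescaled by median-of-ratios factors, the median interaction of the 9792 genes moved from 0.23 to 0.01 and the counts became 1901 higher (19.4%) and 2291 lower (23.4%). Of the genes counted as deposited, 1900 of the 3510 higher and 1234 of the 1234 lower kept their call, and 0 took the opposite call. Many differences were small: in 2044 of the 4744 genes (43.1%) the smaller of the clone interactions was under 0.5 on the log2 scale. A difference of at least 2-fold in both clones was found for 266 genes higher (2.72%) and 278 lower (2.84%), and 264 of the 266 and 278 of the 278 stayed counted in the same direction after rescaling. At least 2-fold after rescaling were 127 genes higher and 468 lower. The plot of interactions over all genes shows this shift.

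**Figure D1:**
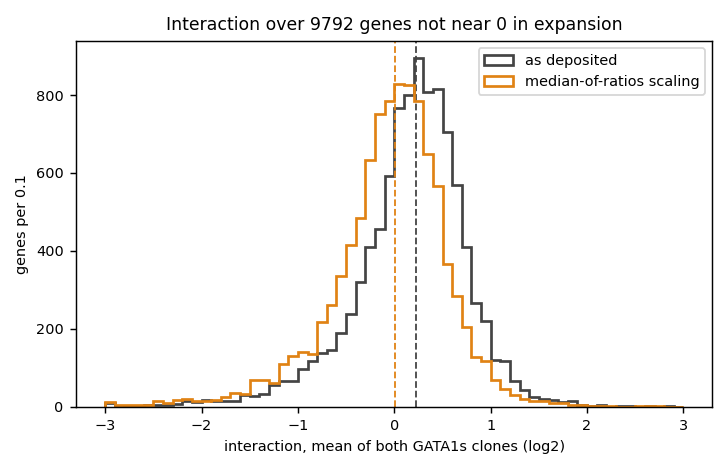
Number of genes (vertical axis, per 0.1) by interaction on the log2 scale, mean of both GATA1s clones against FL (horizontal axis), for the 9792 genes not near 0 in expansion; values beyond 3 in either direction are counted in the outermost bins. The dark outline shows the deposited values and the orange outline the same values after median-of-ratios scaling, with dashed lines at the medians of 0.23 and 0.01.

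The libraries of a group resembled each other, with correlations of log values between 0.992 and 0.998. The sums over the 13358 listed genes were 943734 to 950736 in expansion libraries. At day 4 they were 814583 to 945379 in the GATA1s clones and 1045885 to 1081251 in FL, so the day-4 values carry a further scaling that TPM does not. The columns of the 2 conditions may have been scaled separately: a shift common to all day-4 libraries cancels in the interaction, and one that differs between clones does not. All 10 erythroid markers examined were at 1 or more in every group. Globin transcripts made up 19.8 ± 0.668% of the day-4 total in 1D5, 12.9 ± 0.435% in 1KI9 and 38.8 ± 0.587% in FL (mean ± SD, n = 3), against 5.30 ± 1.33% in 1D5, 4.23 ± 0.272% in 1KI9 and 7.30 ± 2.88% in FL in expansion. The library labelled FL expansion replicate 1 had 10.6% globin, against 5.55% and 5.73% in the other FL expansion libraries. The values keep no read depth, so no counting interval can be given. In these bulk libraries fewer cells of a kind and less RNA per cell cannot be told apart.

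GATA1 itself (chromosome X, 48786554 to 48794311; coordinates here and below are those of GENCODE 29 on GRCh38) was transcribed in every library. At day 4 its values were 1043, 1102 and 1033 in 1D5, 941, 934 and 901 in 1KI9, and 236, 235 and 221 in FL. In expansion they were 637, 680.2 and 634 in 1D5, 614, 629 and 662 in 1KI9, and 152, 168 and 143 in FL. GATA1s clones were above FL in both conditions with no overlap, and GATA1 rose at day 4 in all 3 clones. The interaction was 0.12 ± 0.08 in 1D5 (limma adjusted p = 0.204) and -0.04 ± 0.08 in 1KI9 (limma adjusted p = 0.722), so no difference in the day-4 change was detected on the deposited scale. After rescaling the mean of both clones was -0.20 and passed the threshold (limma adjusted p = 0.0245), without a call in both clones. A gene-level value cannot tell full-length GATA1 from GATA1s transcripts, since both come from this gene, so it does not check the labels.

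Sorted by what each clone did at day 4, the largest class of the 4744 genes was one of unequal falls. In 2137 genes (45.0%) all 3 clones fell, and both GATA1s clones fell less than FL. In 468 genes FL fell while neither GATA1s clone changed past the threshold. Rises were also unequal: 403 genes (8.49%) rose in all 3 clones, and less in both GATA1s clones than in FL. Opposite directions were less common than any of these, with 192 genes (4.05%) that fell in FL and rose in both GATA1s clones, and 121 (2.55%) that rose in FL and fell in both. With median-of-ratios scaling these classes held 797 genes for unequal falls, 233 for falls in FL alone, 1070 for unequal rises, 161 for genes that fell in FL and rose in both GATA1s clones, and 189 for the reverse.

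Most genes that differed by at least 2-fold had been close to FL in expansion. The share of all 9792 genes that were this close was not counted, so closeness is not shown to be particular to them. There, 231 of the 266 higher genes and 211 of the 278 lower genes were within 2-fold of FL in both GATA1s clones, which by arithmetic puts them above FL at day 4 for the higher genes and below it for the lower ones. Fewer had been far from FL on the opposite side: 9 of the 266 higher genes were at least 2-fold below FL in expansion in both clones, and 25 of the 278 lower genes were at least 2-fold above FL there. The plot of the day-4 change in both genotypes shows the fan of points below the diagonal, where FL rose more.

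**Figure D2:**
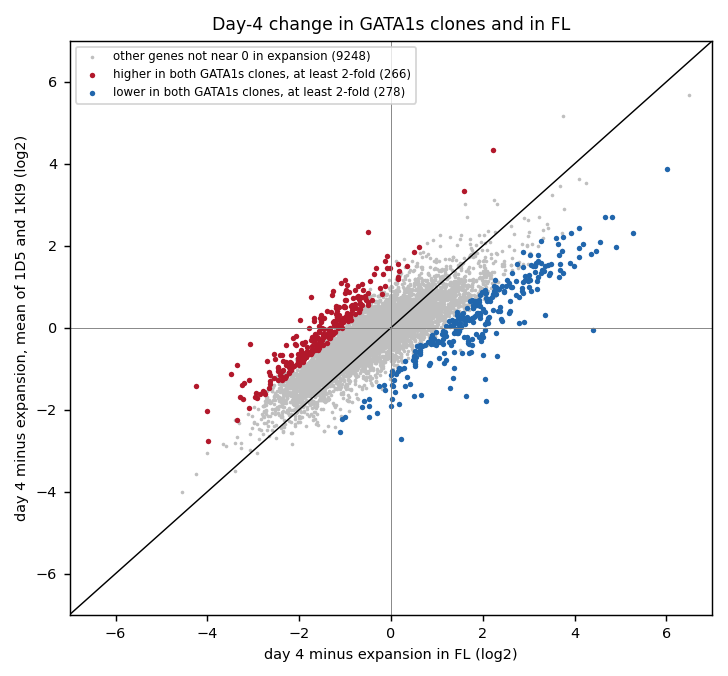
Day-4 minus expansion change on the log2 scale in FL (horizontal axis) and as the mean of the GATA1s clones 1D5 and 1KI9 (vertical axis), one point per gene not near 0 in expansion. Red points are the 266 genes with an interaction at least 2-fold higher in both clones and blue points the 278 at least 2-fold lower; points on the diagonal changed equally.

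SELENBP1, a methanethiol oxidase that is abundant in red cells, had the most negative interaction (chromosome 1, 151364302 to 151372733). Its day-4 values were 11.5, 10.4 and 10.4 in 1D5, 2.19, 2.58 and 2.62 in 1KI9, and 237, 240.1 and 221 in FL. In expansion they were 10.8, 11.9 and 11.8 in 1D5, 2.72, 2.05 and 2.86 in 1KI9, and 15.8, 9.83 and 6.57 in FL. Every day-4 FL library lay far above all the others, while the GATA1s clones stood at day 4 where they stood in expansion. The interaction was -4.48 ± 0.25 in 1D5 (limma adjusted p = 3.24e-10) and -4.42 ± 0.25 in 1KI9 (limma adjusted p = 2.65e-10), where ± is the model's standard error here and in all interactions below.

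TNNI3, the inhibitory troponin subunit known from heart muscle (chromosome 19, 55151767 to 55157773), rose in FL and fell in both GATA1s clones. Its values at day 4 were 1.52, 1.41 and 1.35 in 1D5, 1.34, 1.58 and 1.26 in 1KI9, and 20.9, 20.5 and 19.2 in FL, and in expansion 6.39, 6.47 and 4.24 in 1D5, 7.27, 9.37 and 12.4 in 1KI9, and 3.96, 4.07 and 4.25 in FL. The GATA1s libraries were the lowest at day 4, and in expansion every 1D5 library but the lowest, and every 1KI9 library, lay above FL. The interaction was -3.50 ± 0.20 in 1D5 (limma adjusted p = 4.57e-10) and -4.19 ± 0.20 in 1KI9 (limma adjusted p = 3.13e-11). MYL4, a myosin light chain of atrial and embryonic muscle (chromosome 17, 47200446 to 47223679), showed the same crossing, with values at day 4 of 17.9, 15.9 and 16.2 in 1D5, 29.9, 26.1 and 25.8 in 1KI9, and 103, 94.1 and 89 in FL. In expansion MYL4 was at 49.5, 61.7 and 61.9 in 1D5, 81.9, 76.7 and 95.6 in 1KI9, and 40.2, 25.9 and 26 in FL, so the GATA1s clones were above FL before and below it at day 4, with no overlap in either condition. Its interaction was -3.36 ± 0.19 in 1D5 (limma adjusted p = 3.24e-10) and -3.23 ± 0.19 in 1KI9 (limma adjusted p = 3.15e-10).

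AQP3, a channel for water and glycerol in the red cell membrane (chromosome 9, 33441154 to 33447633), had values at day 4 of 6.37, 6.52 and 6.38 in 1D5, 6.49, 6.64 and 5.88 in 1KI9, and 76.9, 73.4 and 70.4 in FL. In expansion the 3 clones overlapped, at 17.2, 19.2 and 13 in 1D5, 18.9, 16.4 and 15.5 in 1KI9, and 21.8, 16.3 and 13.7 in FL. At day 4 FL was far above both GATA1s clones, which still overlapped each other, and the interaction was -3.27 ± 0.19 in 1D5 (limma adjusted p = 4.86e-10) and -3.34 ± 0.19 in 1KI9 (limma adjusted p = 2.62e-10). SLC7A8, a carrier of neutral amino acids (chromosome 14, 23125295 to 23183674), stood at 7.81, 7.61 and 7.07 in 1D5, 6.96, 7.63 and 6.87 in 1KI9, and 90.3, 86 and 88.1 in FL at day 4. The expansion values were 5.22, 5.72 and 4.0 in 1D5, 6.45, 8.45 and 5.44 in 1KI9, and 6.54, 9.44 and 7.57 in FL. FL had left the common low level of expansion while both GATA1s clones stayed near it, with an interaction of -2.83 ± 0.19 in 1D5 (limma adjusted p = 2.51e-09) and -3.26 ± 0.19 in 1KI9 (limma adjusted p = 2.65e-10).

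ALAD, the second enzyme of heme synthesis (chromosome 9, 113386317 to 113401333), had day-4 values of 15, 14 and 14.4 in 1D5, 16.8, 16.5 and 15.6 in 1KI9, and 87.1, 91.8 and 86.9 in FL. It had been at 42.9, 45 and 37.4 in 1D5, 48, 42.5 and 50.6 in 1KI9, and 43.7, 33.2 and 30.8 in FL in expansion, where the FL range overlapped those of both GATA1s clones. At day 4 it fell in every GATA1s library below the lowest expansion library and rose in every FL library above the highest. The interaction was -2.76 ± 0.14 in 1D5 (limma adjusted p = 1.04e-10) and -2.76 ± 0.14 in 1KI9 (limma adjusted p = 6.23e-11). HBB, the adult beta globin (chromosome 11, 5225464 to 5229395), rose in all 3 clones, to 30.5, 33.2 and 27.7 in 1D5, 17.1, 14.7 and 14 in 1KI9, and 172, 163 and 177 in FL at day 4. Its expansion values were spread widely, at 4.57, 7.68 and 15.4 in 1D5, 3.21, 2.22 and 4.31 in 1KI9, and 13.3, 3.6 and 6.21 in FL, and the interaction was -2.70 ± 0.47 in 1D5 (limma adjusted p = 1.06e-04) and -2.50 ± 0.47 in 1KI9 (limma adjusted p = 1.81e-04). FL was the highest at day 4 without overlap, and in expansion no clone stood apart from both others.

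The other 7 of the 14 largest negative interactions had mean values between -3.02 (PRXL2A) and -2.56 (METTL7A). They include SLC39A8, an importer of zinc and manganese, at 30.3 to 32.4 in 1D5, 34.4 to 38.5 in 1KI9 and 249 to 269.8 in FL at day 4, against 27.1 to 39.1 in 1D5, 28.2 to 30.2 in 1KI9 and 28.2 to 37.7 in FL in expansion. RAP1GAP, which turns off the small GTPase RAP1, ranged over 10.4 to 10.9 in 1D5, 5.86 to 6.62 in 1KI9 and 138 to 143 in FL at day 4 and over 1.08 to 1.78 in 1D5, 0.78 to 1.66 in 1KI9 and 1.66 to 6.31 in FL in expansion, where its level was low. HIST1H1C, a linker histone gene, was at 126 to 148 in 1D5, 57 to 68.4 in 1KI9 and 315 to 366 in FL at day 4 and at 16 to 17.5 in 1D5, 17.6 to 20.0 in 1KI9 and 5.36 to 10.8 in FL in expansion. For each of these 3 genes FL was above both GATA1s clones at day 4 without overlap, whereas HIST1H1C was below both in expansion. HIF3A, a subunit of a hypoxia-inducible factor, did not change past the threshold in FL (0.21) and fell by 2.15 in 1D5 and by 3.26 in 1KI9 on the log2 scale. SNX22, a sorting nexin, and METTL7A, a methyltransferase-like protein, rose in FL and fell in both GATA1s clones.

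Among the positive interactions the largest was that of CACNB1, a beta subunit of voltage-gated calcium channels (chromosome 17, 39173456 to 39197703). Its values at day 4 were 8.46, 8.98 and 10.6 in 1D5, 14.1, 13.3 and 17 in 1KI9, and 1.09, 1.0 and 0.81 in FL. In expansion they were 1.08, 1.08 and 1.12 in 1D5, 2.43, 2.01 and 1.64 in 1KI9, and 1.51, 2.45 and 1.46 in FL. Both GATA1s clones rose well above every other library, and FL fell. The interaction was 2.80 ± 0.18 in 1D5 (limma adjusted p = 2.40e-09) and 2.88 ± 0.18 in 1KI9 (limma adjusted p = 8.02e-10).

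RFLNB, an actin regulator that acts through filamin (chromosome 17, 439978 to 445939), had day-4 values of 58.7, 59.9 and 60.7 in 1D5, 46.8, 47.3 and 47 in 1KI9, and 16.7, 16.3 and 16.5 in FL. Before, in expansion, it was at 25.5, 22.9 and 31 in 1D5, 19.8, 19.9 and 20.7 in 1KI9, and 38.6, 33.5 and 30.1 in FL. FL was above 1KI9 and overlapped 1D5 in expansion and was below both at day 4, and the interaction was 2.15 ± 0.13 in 1D5 (limma adjusted p = 4.86e-10) and 2.18 ± 0.13 in 1KI9 (limma adjusted p = 2.70e-10). SLC27A2, which activates very long chain fatty acids (chromosome 15, 50182196 to 50236395), was at 59.1, 53.8 and 55.1 in 1D5, 67.8, 73.1 and 71.3 in 1KI9, and 13.4, 12.4 and 13.2 in FL at day 4. Expansion values of SLC27A2 were 31.2, 29.9 and 26 in 1D5, 41.5, 37.3 and 37.1 in 1KI9, and 26.8, 37.5 and 35.5 in FL. FL overlapped both GATA1s clones in expansion and was the lowest without overlap at day 4, and the interaction was 2.20 ± 0.14 in 1D5 (limma adjusted p = 1.19e-09) and 2.13 ± 0.14 in 1KI9 (limma adjusted p = 8.69e-10).

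NUCB2, a calcium-binding protein and the precursor of nesfatin (chromosome 11, 17208153 to 17349980), stood at 137, 145 and 138 in 1D5, 223, 223 and 225 in 1KI9, and 24.8, 26.4 and 26.4 in FL at day 4. In expansion it stood at 73.2, 73.1 and 64.7 in 1D5, 103, 106 and 88 in 1KI9, and 42.6, 65.1 and 63.2 in FL. Each day-4 library lay above all expansion libraries of its clone in 1D5 and 1KI9 and below them in FL, with an interaction of 2.07 ± 0.16 in 1D5 (limma adjusted p = 1.17e-08) and 2.26 ± 0.16 in 1KI9 (limma adjusted p = 2.78e-09). MDK, the heparin-binding growth factor midkine (chromosome 11, 46380756 to 46383837), kept its expansion level in the GATA1s clones, at 14.8, 14.5 and 12.4 in 1D5, 10.8, 10.8 and 10.5 in 1KI9, and 1.23, 1.29 and 1.44 in FL at day 4. It had been at 13.8, 14 and 10.6 in 1D5, 9.0, 9.43 and 8.47 in 1KI9, and 5.37, 12 and 8.37 in FL in expansion. FL alone was low at day 4, and the interaction was 2.11 ± 0.24 in 1D5 (limma adjusted p = 1.00e-06) and 2.22 ± 0.24 in 1KI9 (limma adjusted p = 4.04e-07).

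For RHEX and FOXA2 the positive interaction came with a high level in FL in expansion. RHEX, an adaptor at the erythropoietin receptor known for its part in erythroid expansion, was under 1 in every day-4 library (0.16 to 0.29 in 1D5, 0.17 to 0.33 in 1KI9 and 0.30 to 0.61 in FL). RHEX was at 2.59, 2.77 and 1.81 in 1D5, 2.47, 2.04 and 2.28 in 1KI9, and 14.6, 44 and 31.3 in FL in expansion. The clones were close at day 4 and apart in expansion, so the interaction of 2.79 ± 0.34 in 1D5 (limma adjusted p = 2.36e-06) and 2.84 ± 0.34 in 1KI9 (limma adjusted p = 1.43e-06) reflects a larger fall in FL. FOXA2, a forkhead factor of endoderm, was at 1.46 to 1.76 in 1D5, 1.56 to 1.81 in 1KI9 and 0.18 to 0.27 in FL at day 4, against 0.97 to 2.05 in 1D5, 3.16 to 5.05 in 1KI9 and 6.12 to 12 in FL in expansion, with an interaction of 3.09 in 1D5 and 2.25 in 1KI9. It is also low at day 4, where log2(value + 1) understates changes.

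**Figure D3:**
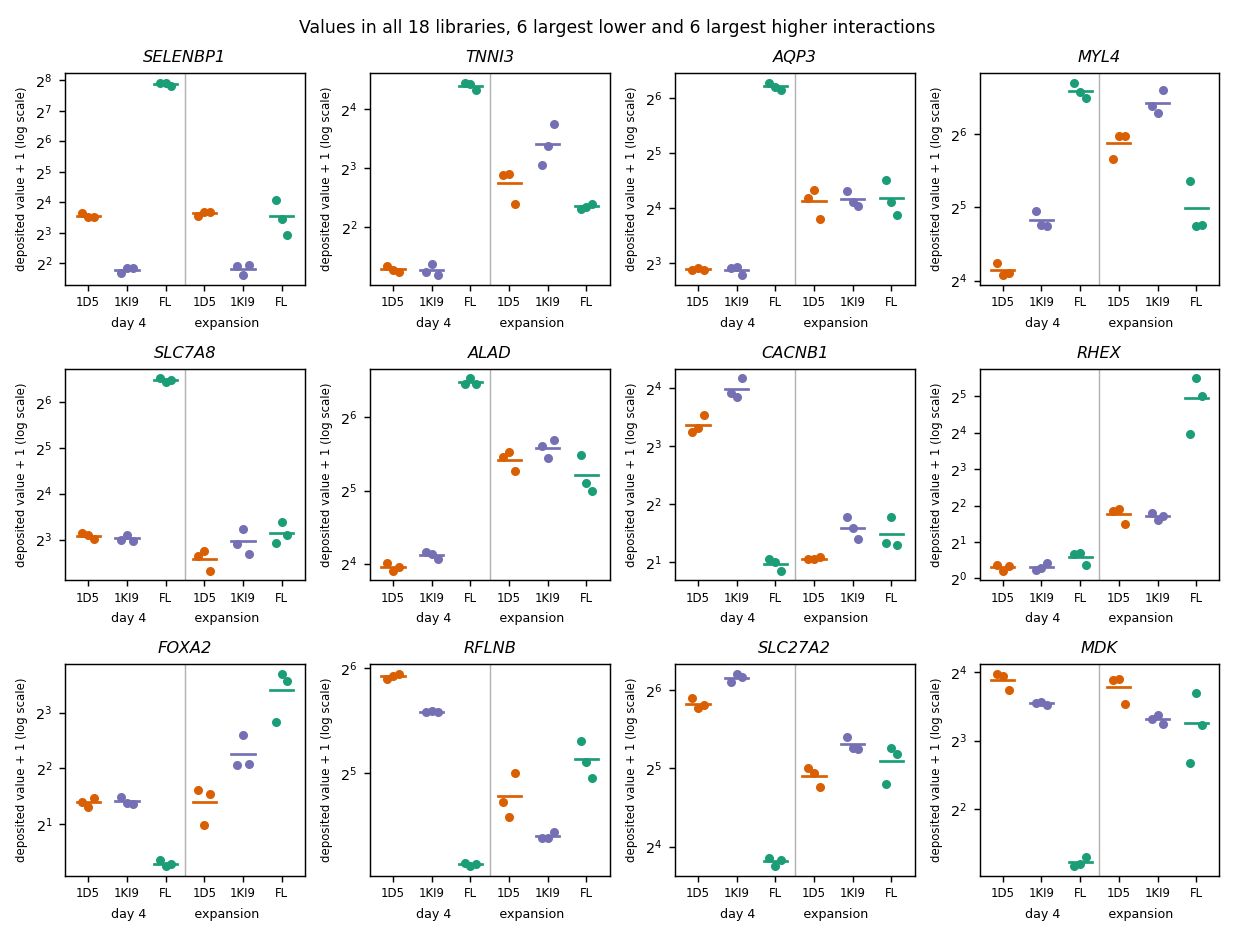
Deposited value plus 1 on a log2 axis in each of the 18 libraries for the genes with the 6 largest lower (SELENBP1 to ALAD) and 6 largest higher (CACNB1 to MDK) interactions; day 4 is left of the grey line and expansion right of it. Points are libraries in 1D5 (orange), 1KI9 (purple) and FL (green), and bars are means of the deposited values, plus 1. In the lower genes FL stands above both GATA1s clones at day 4, and in the higher ones other than RHEX below them.

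The other positive interactions were those of RDH10, a retinol dehydrogenase, VIM, the intermediate filament protein vimentin, FABP5, a fatty acid binding protein, COCH, a secreted matrix protein, ERAL1, an assembly factor of the small mitochondrial ribosome subunit, ITM2C, a membrane protein, and ITGB4, the integrin beta 4 chain. VIM fell in all 3 clones and was at 590.0 to 645 in 1D5, 631 to 689.5 in 1KI9 and 117 to 118 in FL at day 4, against 863 to 1217 in 1D5, 1807 to 1889 in 1KI9 and 886 to 1860.1 in FL in expansion. The fall was smaller than in FL by 2.70 in 1D5 and by 2.02 in 1KI9 on the log2 scale. ITGB4 rose in all 3 clones, and most in the GATA1s clones, to 74.9 to 77.1 in 1D5, 68.1 to 73.2 in 1KI9 and 18.1 to 21.9 in FL at day 4, against 1.88 to 2.53 in 1D5, 2.57 to 4.63 in 1KI9 and 2.73 to 4.71 in FL in expansion. ERAL1 was at 27.9 to 30.2 in 1D5, 30.7 to 33.3 in 1KI9 and 7.81 to 8.82 in FL at day 4 and at 43.3 to 47.9 in 1D5, 45.3 to 56.2 in 1KI9 and 51.4 to 57.1 in FL in expansion, with the same interaction of 1.91 in both clones.

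Windows around a transcription start of the genes with the largest interactions were read for the GATA core motif, since GATA1 binds it. The letters searched were AGATAA, also with T in place of the first letter or G in place of the last, forms that share the core GATA and so cannot be told apart by it, on both strands in RefSeq windows (GRCh38.p14) from 250 bases before to 50 after the first start listed for a gene. Of the 28 genes named for size, 16 matched a window, and a motif was present in 1 of the higher ones, RHEX, and 2 of the lower ones, TNNI3 and SLC39A8. The 250 bases before the start are shown for these 3 genes, 5′ to 3′ on the gene's strand, with motifs, on either strand, in capitals. In RHEX and SLC39A8 all of the bases shown lie inside the gene span of GENCODE 29, downstream of the gene's own start, so the window belongs to an internal start. In TNNI3 the start used also lies inside the span, but close to the gene's own start at 55157773. The bases shown for TNNI3, from 55157733 to 55157982, reach past that position.
RHEX (chr1:206083345-206083594, plus strand): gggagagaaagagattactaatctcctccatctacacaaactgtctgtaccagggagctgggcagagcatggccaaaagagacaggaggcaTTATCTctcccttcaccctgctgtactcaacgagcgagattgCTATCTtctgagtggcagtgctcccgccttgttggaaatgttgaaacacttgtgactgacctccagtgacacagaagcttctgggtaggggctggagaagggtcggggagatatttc
TNNI3 (chr19:55157733-55157982, minus strand): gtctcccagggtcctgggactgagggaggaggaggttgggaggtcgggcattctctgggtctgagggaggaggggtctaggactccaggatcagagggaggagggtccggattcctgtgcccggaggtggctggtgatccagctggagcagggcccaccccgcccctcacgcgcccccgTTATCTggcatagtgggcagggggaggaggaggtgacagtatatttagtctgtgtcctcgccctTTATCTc
SLC39A8 (chr4:102345254-102345503, minus strand): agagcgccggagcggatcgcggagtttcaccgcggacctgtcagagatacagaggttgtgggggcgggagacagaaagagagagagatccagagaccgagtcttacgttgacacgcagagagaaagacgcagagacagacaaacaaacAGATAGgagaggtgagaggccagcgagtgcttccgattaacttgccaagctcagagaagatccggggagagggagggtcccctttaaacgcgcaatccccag
The motifs begin 159 and 117 bases before the start in RHEX, 71 and 7 bases before it in TNNI3, and 102 bases before it in SLC39A8. A motif was present in 18.4% of windows of genes lower in both clones (179 of 974), in 12.7% of those higher (361 of 2837) and in 13.7% of all tested genes not near 0 (1076 of 7869). It was present in 25.5% of all 27305 windows in the table. For a difference of at least 2-fold the shares were 18% of the lower (37 of 205) and 12.4% of the higher genes (25 of 202). These shares are descriptions of letters in the windows and were not tested.

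Genes of heme synthesis mostly had lower interactions. Of 14 in the list, 12 had a lower interaction in both GATA1s clones and 0 a higher one, where the shares over all genes were 12.6% and 35.8%; after rescaling these were 13 and 0. The median interaction of the 14 was -1.04, against 0.23 for all 9792 genes. ALAS2, the erythroid first enzyme of the pathway, rose in every clone, to 614, 653 and 614 in 1D5, 359, 360.2 and 353 in 1KI9, and 2219, 2131 and 2082 in FL at day 4. ALAS2 had expansion values of 141, 122 and 234 in 1D5, 189.9, 132 and 155 in 1KI9, and 247, 143 and 81.1 in FL. At day 4 FL was highest, 1D5 lower and 1KI9 lowest with no overlap, while the clones overlapped in expansion, and the interaction was -1.93 ± 0.38 in 1D5 (limma adjusted p = 3.13e-04) and -2.73 ± 0.38 in 1KI9 (limma adjusted p = 7.53e-06). SLC25A37, the mitochondrial iron importer mitoferrin-1, was at 450.1 to 559.9 in 1D5, 301 to 339.6 in 1KI9 and 3305 to 3413 in FL at day 4 and at 155 to 230.4 in 1D5, 112 to 138 in 1KI9 and 199 to 569.6 in FL in expansion, with an interaction of -1.86 in 1D5 and -2.01 in 1KI9. ALAS1, the housekeeping form of the first enzyme, and FLVCR1, a heme and choline transporter, were the list members without a call on the deposited scale, at -0.01 and 0.13 for the mean of both clones.

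Globins and their chaperone also mostly had lower interactions. In this list of 11, 8 genes were lower in both clones and 0 higher (9 and 0 after rescaling). The shares over all genes were 12.6% and 35.8% as deposited, and 23.4% and 19.4% after rescaling. The list had a median interaction of -0.91 and median day-4 changes of 1.47 in 1D5, 1.25 in 1KI9 and 2.46 in FL. AHSP, the chaperone of free alpha globin, had day-4 values of 167, 199 and 176 in 1D5, 183, 178 and 166 in 1KI9, and 1264, 1235 and 1262 in FL. In expansion these were 58.1, 87.3 and 106 in 1D5, 52.2, 57.6 and 72.9 in 1KI9, and 204, 92.9 and 116 in FL. Its level was similar in the GATA1s clones and far higher in FL at day 4, and the interaction was -2.12 ± 0.31 in 1D5 (limma adjusted p = 1.52e-05) and -1.73 ± 0.31 in 1KI9 (limma adjusted p = 9.62e-05). The members without a call on the deposited scale were HBZ, HBE1 and HBG2, at -0.82, -0.81 and -0.95 for the mean of both clones. HBE1 and HBG2 were negative in both clones, whereas HBZ had opposite signs, -1.92 in 1D5 and 0.29 in 1KI9. Values of HBA1 with HBA2, and of HBG1 with HBG2, are uncertain, since these near-identical copies share reads.

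Of 16 genes of iron handling, 7 were lower and 2 higher in both clones (9 and 2 after rescaling). All genes together had 12.6% lower and 35.8% higher as deposited, and 23.4% and 19.4% after rescaling. TFRC, the transferrin receptor, rose past the threshold in FL alone and was at 333, 269 and 331 in 1D5, 302, 289 and 341 in 1KI9, and 1207, 1229 and 1300.2 in FL at day 4. Its expansion values were 342, 418 and 352 in 1D5, 255, 315 and 350.1 in 1KI9, and 566, 454 and 414 in FL, and the interaction was -1.65 ± 0.17 in 1D5 (limma adjusted p = 4.39e-07) and -1.36 ± 0.17 in 1KI9 (limma adjusted p = 2.70e-06). HMOX1, which breaks heme down, rose in all 3 clones and had an interaction of -1.16 in 1D5 and -2.16 in 1KI9. The higher members were SLC39A14, an importer of iron, zinc and manganese (1.72 in 1D5 and 1.46 in 1KI9), and ACO1, which also acts as the iron regulatory protein IRP1 (0.66 in 1D5 and 0.79 in 1KI9).

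The red cell membrane followed. Of 19 carriers of blood group antigens, 14 were lower and 1 higher in both clones (16 and 1 after rescaling), with a median of -1.42, the lowest of the 42 lists with at least 5 genes. Here too the shares of all genes were 12.6% lower and 35.8% higher as deposited, and 23.4% and 19.4% after rescaling. GYPC, the glycophorin that carries Gerbich antigens, was at 214, 246 and 219 in 1D5, 181, 185 and 167 in 1KI9, and 1404, 1421 and 1334 in FL at day 4. It stood at 183, 222 and 217 in 1D5, 134, 139 and 161 in 1KI9, and 328, 259 and 211 in FL in expansion. On the log2 scale the day-4 change was 0.13 in 1D5, 0.30 in 1KI9 and 2.40 in FL, of which the value in 1D5 did not pass the threshold, and the interaction was -2.27 ± 0.16 in 1D5 (limma adjusted p = 6.41e-09) and -2.10 ± 0.16 in 1KI9 (limma adjusted p = 1.06e-08). ACKR1, the Duffy antigen receptor, and ART4, which carries Dombrock antigens, had interactions of -2.38 in 1D5 and -2.21 in 1KI9 for ACKR1, and of -1.91 in 1D5 and -2.43 in 1KI9 for ART4. ACKR1 was low in FL in both conditions (1.78 to 2.57 at day 4 and 0.75 to 1.24 in expansion) and fell in both GATA1s clones. The higher member was SLC14A1, the urea transporter of the Kidd antigens (1.44 in 1D5 and 1.25 in 1KI9). Of 16 membrane skeleton genes, 10 were lower and 0 higher (13 and 0 after rescaling), led by EPB42, protein 4.2, at -1.92 ± 0.23 (limma adjusted p = 1.35e-06) for the mean of both clones.

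Late maturation genes held 22 lower and 1 higher of 28 (23 and 1 after rescaling), with a median of -1.02. The list is a mixed one of enzymes, autophagy and nuclear condensation genes, with receptors, carriers and channels such as EPOR, SLC2A1 and KCNH2. Not all of its members are known to come up as red cells mature. SLC2A1 and BPGM are also counted in glycolysis, and EPOR with the erythropoietin signalling genes. This is read against 12.6% lower and 35.8% higher over all genes as deposited, and 23.4% and 19.4% after rescaling. PRDX2, the abundant red cell peroxiredoxin, was at 178, 207 and 185 in 1D5, 178, 180.0 and 166 in 1KI9, and 1176, 1143 and 1093 in FL at day 4. Its expansion values were 617, 721 and 811 in 1D5, 432, 475 and 520.1 in 1KI9, and 1049.7, 654 and 751 in FL. It fell in every GATA1s library below all expansion libraries, and the interaction was -2.40 ± 0.18 in 1D5 (limma adjusted p = 9.06e-09) and -1.94 ± 0.18 in 1KI9 (limma adjusted p = 7.88e-08). BPGM, which makes 2,3-bisphosphoglycerate, rose in every clone, to 63.4 to 67.8 in 1D5, 40.0 to 41.2 in 1KI9 and 305 to 323 in FL at day 4, against 11.8 to 12.4 in 1D5, 10.7 to 12.3 in 1KI9 and 12.6 to 20.6 in FL in expansion. KCNH2, a potassium channel, was the higher member (0.71 in 1D5 and 0.74 in 1KI9). Lists and genes of the red cell programme were chosen with results of these libraries known, so their direction is not independent evidence.

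**Figure D4:**
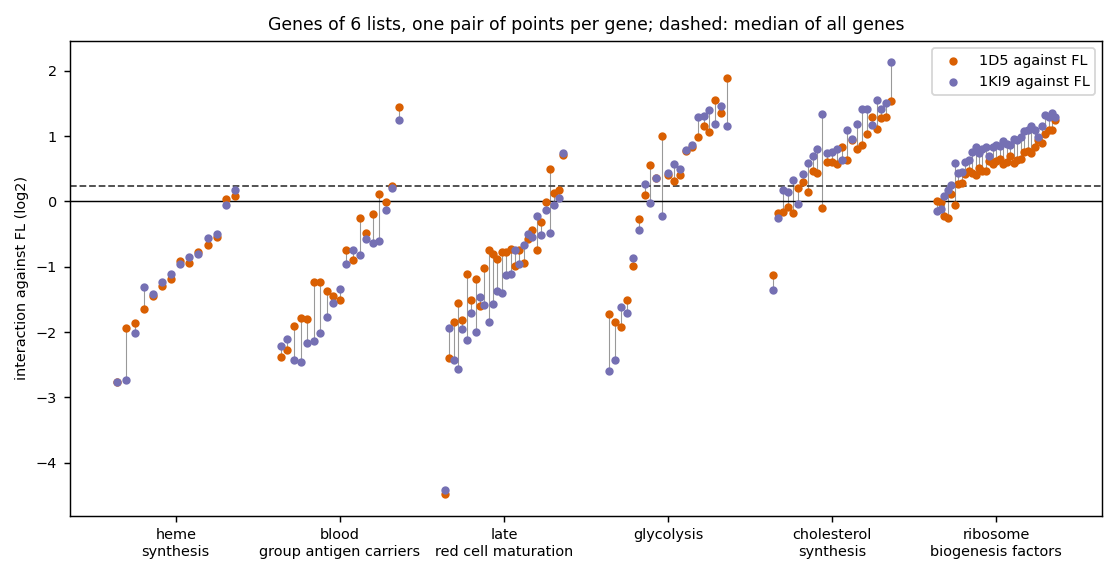
Interaction on the log2 scale (vertical axis) of each gene in 6 lists, with 1D5 against FL in orange and 1KI9 against FL in purple, joined by a line for each gene and sorted within a list. The dashed line is the median of all 9792 genes, 0.23; most genes of heme synthesis, blood group antigen carriers and late red cell maturation lie under 0, and most of cholesterol synthesis and ribosome biogenesis above it.

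Regulators of the progenitor state moved the other way. Of 5 stem and progenitor genes, KIT, MYB, GATA2 and SPI1 were higher in both clones and LMO4 lower, on both scales, although SPI1 lost its call with a pseudocount of 5 (mean interaction 0.03, limma adjusted p = 0.844). Among all genes 35.8% were higher and 12.6% lower as deposited, and 19.4% and 23.4% after rescaling. KIT, the stem cell factor receptor, had day-4 values of 273, 224 and 269 in 1D5, 264, 257 and 285 in 1KI9, and 69.1, 73.1 and 72.4 in FL. KIT was at 310, 285 and 308 in 1D5, 381, 417 and 434 in 1KI9, and 291, 414 and 369 in FL in expansion. FL was the lowest clone at day 4 by a wide margin, where it had overlapped both GATA1s clones in expansion, and the interaction was 2.05 ± 0.14 in 1D5 (limma adjusted p = 3.57e-09) and 1.68 ± 0.14 in 1KI9 (limma adjusted p = 2.27e-08). GATA2, the GATA factor of progenitors that GATA1 normally replaces, stood at 109, 113 and 111 in 1D5, 106, 102 and 98.7 in 1KI9, and 52.1, 50.2 and 49.1 in FL at day 4. Its expansion values were 126, 139.7 and 127 in 1D5, 96.8, 115 and 116 in 1KI9, and 115, 171 and 149 in FL. GATA2 fell in FL and 1D5 past the threshold and not in 1KI9, and the interaction was 1.25 ± 0.14 in 1D5 (limma adjusted p = 1.31e-06) and 1.39 ± 0.14 in 1KI9 (limma adjusted p = 2.89e-07). MYB, a driver of progenitor division, was at 68 to 75.9 in 1D5, 106 to 117 in 1KI9 and 24.2 to 25.2 in FL at day 4, against 81.9 to 97.1 in 1D5, 116 to 130.2 in 1KI9 and 67.8 to 93.3 in FL in expansion, with an interaction of 1.41 in 1D5 and 1.57 in 1KI9.

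Among 23 erythroid transcription factors and cofactors, 4 were higher and 8 lower in both clones (3 and 12 after rescaling). The shares of all genes were 35.8% and 12.6% as deposited, and 19.4% and 23.4% after rescaling. The lower ones include KLF1, an activator of adult globin and many red cell genes, at 208, 239 and 208 in 1D5, 207, 201 and 174 in 1KI9, and 434, 448 and 396 in FL at day 4. It was at 175, 202 and 165 in 1D5, 134, 137 and 138 in 1KI9, and 179, 168 and 143 in FL in expansion. KLF1 rose in all 3 clones and most in FL, with an interaction of -1.11 ± 0.13 in 1D5 (limma adjusted p = 1.25e-06) and -0.88 ± 0.13 in 1KI9 (limma adjusted p = 1.16e-05). FOXO3, which drives late maturation genes, and KLF13 had mean interactions of -1.53 ± 0.12 for FOXO3 and -1.45 ± 0.08 for KLF13. The higher ones include RUNX1, at 1.31 ± 0.12 (limma adjusted p = 6.84e-08). ZFPM1 (FOG1), TAL1 and LMO2, partners of GATA1, were at 0.03, -0.63 and -0.14 for the mean of both clones, and of these TAL1 was called lower in both.

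Of 24 receptors and signalling genes for erythropoietin and stem cell factor, 6 were higher and 6 lower as deposited, and 4 and 10 after rescaling. Over all genes 35.8% were higher and 12.6% lower as deposited, and 19.4% and 23.4% after rescaling. EPOR, the erythropoietin receptor, was at 26.1 ± 0.235 in 1D5, 26.5 ± 1.68 in 1KI9 and 95.2 ± 5.04 in FL at day 4 (mean ± SD, n = 3 each), against 21.4 ± 2.82 in 1D5, 19.5 ± 0.986 in 1KI9 and 25.5 ± 5.96 in FL in expansion. The rise was larger in FL, with an interaction of -1.60 ± 0.16 in 1D5 (limma adjusted p = 2.59e-07) and -1.46 ± 0.16 in 1KI9 (limma adjusted p = 5.38e-07). JAK2, the kinase bound to that receptor, was also lower (-0.96 in 1D5 and -1.18 in 1KI9). The STAT5 genes, whose products it activates, parted: STAT5A was higher (0.71 in 1D5 and 0.63 in 1KI9) and STAT5B lower (-0.34 in 1D5 and -0.73 in 1KI9).

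Several metabolic and biosynthetic lists held more higher than lower genes, read against 35.8% higher and 12.6% lower over all genes as deposited and 19.4% and 23.4% after rescaling. Values given once for a gene are the mean interaction of both clones. In glycolysis 11 of 21 genes were higher and 5 lower in both clones (8 and 6 after rescaling). PKM, the pyruvate kinase gene of most cells, was at 1034 ± 23.6 in 1D5, 1267 ± 13.5 in 1KI9 and 141 ± 3.2 in FL at day 4 (mean ± SD, n = 3 each), against 429 ± 68.1 in 1D5, 874 ± 24.9 in 1KI9 and 235 ± 107 in FL in expansion. Its red cell counterpart PKLR was at 13.8 ± 0.514 in 1D5, 17.6 ± 0.201 in 1KI9 and 58.9 ± 0.823 in FL at day 4 and at 54.4 ± 10.0 in 1D5, 55.3 ± 3.56 in 1KI9 and 58.5 ± 11.2 in FL in expansion. PKM rose in both GATA1s clones and fell in FL, whereas PKLR fell in both and did not change past the threshold in FL. The interaction was 1.89 ± 0.30 in 1D5 (limma adjusted p = 4.52e-05) and 1.15 ± 0.30 in 1KI9 (limma adjusted p = 0.00319) for PKM. For PKLR it was -1.92 ± 0.16 in 1D5 (limma adjusted p = 3.28e-08) and -1.62 ± 0.16 in 1KI9 (limma adjusted p = 1.75e-07). The genes of phosphofructokinase parted in the same way, with PFKP, the platelet form, at 1.37 ± 0.10 (limma adjusted p = 6.20e-09) and PFKM, the muscle and red cell form, at -2.16 ± 0.13 (limma adjusted p = 3.20e-10). ENO1, an enolase, was at 1.41 ± 0.08 (limma adjusted p = 1.56e-10), and TKT, the transketolase of the pentose phosphate pathway, at 1.16 ± 0.11 (limma adjusted p = 5.15e-08). That pathway had 5 higher and 0 lower of 7 genes as deposited and 1 and 1 after rescaling.

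Cholesterol synthesis had 11 higher and 1 lower of 25 (7 and 1 after rescaling), with a median of 0.68. All genes together had 35.8% higher and 12.6% lower as deposited, and 19.4% and 23.4% after rescaling. The higher count of cholesterol genes as deposited was thus near the share of all genes. DHCR7, which completes cholesterol, was at 41.8, 45.8 and 45.6 in 1D5, 36.6, 36.7 and 35.6 in 1KI9, and 12.3, 12.9 and 9.86 in FL at day 4. In expansion its replicates were spread, at 56.3, 72.7 and 28.2 in 1D5, 27.7, 36.7 and 17.3 in 1KI9, and 33.4, 70.9 and 25.1 in FL. FL was lowest at day 4 without overlap, all 3 clones overlapped in expansion, and the interaction was 1.54 ± 0.46 in 1D5 (limma adjusted p = 0.00777) and 2.13 ± 0.46 in 1KI9 (limma adjusted p = 5.67e-04). SQLE, squalene epoxidase, was at 1.40 ± 0.29 (limma adjusted p = 3.40e-04), and MSMO1 at 1.34 ± 0.42 (limma adjusted p = 0.00889), a gene whose call in both clones was lost after rescaling. The lower member was TM7SF2, a sterol reductase (-1.13 in 1D5 and -1.35 in 1KI9). In fatty acid synthesis 8 were higher and 3 lower of 15 (5 and 3 after rescaling), led by ME1, the cytosolic malic enzyme, at 1.23 ± 0.08 (limma adjusted p = 1.07e-09), while ACSS2, the cytosolic acetyl-CoA synthetase, was lower at -1.06 ± 0.20 (limma adjusted p = 1.34e-04).

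Genes that build ribosomes mostly had higher interactions. Of 35 ribosome biogenesis factors, 29 were higher and 0 lower in both clones (21 and 2 after rescaling), with a median of 0.74. For the lists of this paragraph, the shares of all genes were 35.8% higher and 12.6% lower as deposited, and 19.4% and 23.4% after rescaling. All 3 of the named ones, RRP12, RRP9 and POLR1A, fell in every clone and fell most in FL. RRP12, a ribosome export and processing factor, was at 21.3, 19.9 and 21.3 in 1D5, 26.2, 25.5 and 25.3 in 1KI9, and 10.2, 11.7 and 9.8 in FL at day 4. Its expansion values were 25.2, 23.9 and 24.8 in 1D5, 28.4, 29 and 31 in 1KI9, and 30.2, 31.3 and 32.5 in FL. In expansion FL overlapped 1KI9 and was above 1D5, and FL was lowest at day 4 without overlap, with an interaction of 1.25 ± 0.09 in 1D5 (limma adjusted p = 7.45e-09) and 1.29 ± 0.09 in 1KI9 (limma adjusted p = 3.38e-09). POLR1A, the large subunit of RNA polymerase I, was at 1.20 ± 0.11 (limma adjusted p = 8.92e-08). Nucleotide synthesis had 14 higher and 2 lower of 25 (11 and 3 after rescaling), and CAD, which starts pyrimidine synthesis, was at 1.33 ± 0.12 (limma adjusted p = 2.76e-08). Cytosolic ribosomal protein genes did not share this: 5 were higher and 16 lower of 84 as deposited, 3 and 30 with globins and mitochondrially encoded genes taken out, and 0 and 42 after median-of-ratios rescaling, with medians of -0.14 as deposited and -0.39 after median-of-ratios rescaling.

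Several broad lists moved between the scales along with all 9792 genes, of which 3510 were higher and 1234 lower as deposited, 3164 and 1431 with globins and mitochondrially encoded genes taken out, and 1901 and 2291 after median-of-ratios rescaling. These counts over all genes are 35.8% and 12.6% as deposited and 19.4% and 23.4% after median-of-ratios rescaling. Mitochondrial ribosomal proteins held 43 higher and 4 lower of 78 as deposited, 31 and 5 with globins and mitochondrially encoded genes taken out, and 9 and 8 after median-of-ratios rescaling. On the same 3 scales, proteasome subunits held 22 and 1, 16 and 1, and 3 and 5 of 36, complex I subunits 14 and 1, 11 and 2, and 2 and 5 of 38, and fatty acid oxidation 8 and 3, 6 and 4, and 1 and 7 of 22. Complex I and fatty acid oxidation thus held shares of higher genes near that of all genes as deposited. Serine, glycine and folate metabolism held 11 and 2, 10 and 1, and 3 and 3 of 18. For 13 mitochondrially encoded genes the counts were 8 and 0 as deposited and 0 and 0 after rescaling, and their share of the day-4 total was 16.5 ± 0.521% in 1D5, 18.8 ± 0.479% in 1KI9 and 9.05 ± 0.407% in FL. Single members kept a call on both scales, such as the mitochondrial ribosomal protein MRPL24 at 1.18 ± 0.09 (limma adjusted p = 4.06e-09), with 0.94 after rescaling. The mitochondrial carrier SLC25A4, an ADP/ATP translocase, was at 1.26 ± 0.12 (limma adjusted p = 7.73e-08), and 1.08 after rescaling. Amino acid transport had 9 higher and 5 lower of 18 (4 and 5 after rescaling), and heat shock chaperones 8 and 1 of 13 (4 and 1), with HSPA8, the constitutive HSC70, at 0.93 ± 0.09 (limma adjusted p = 1.66e-07).

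**Figure D5:**
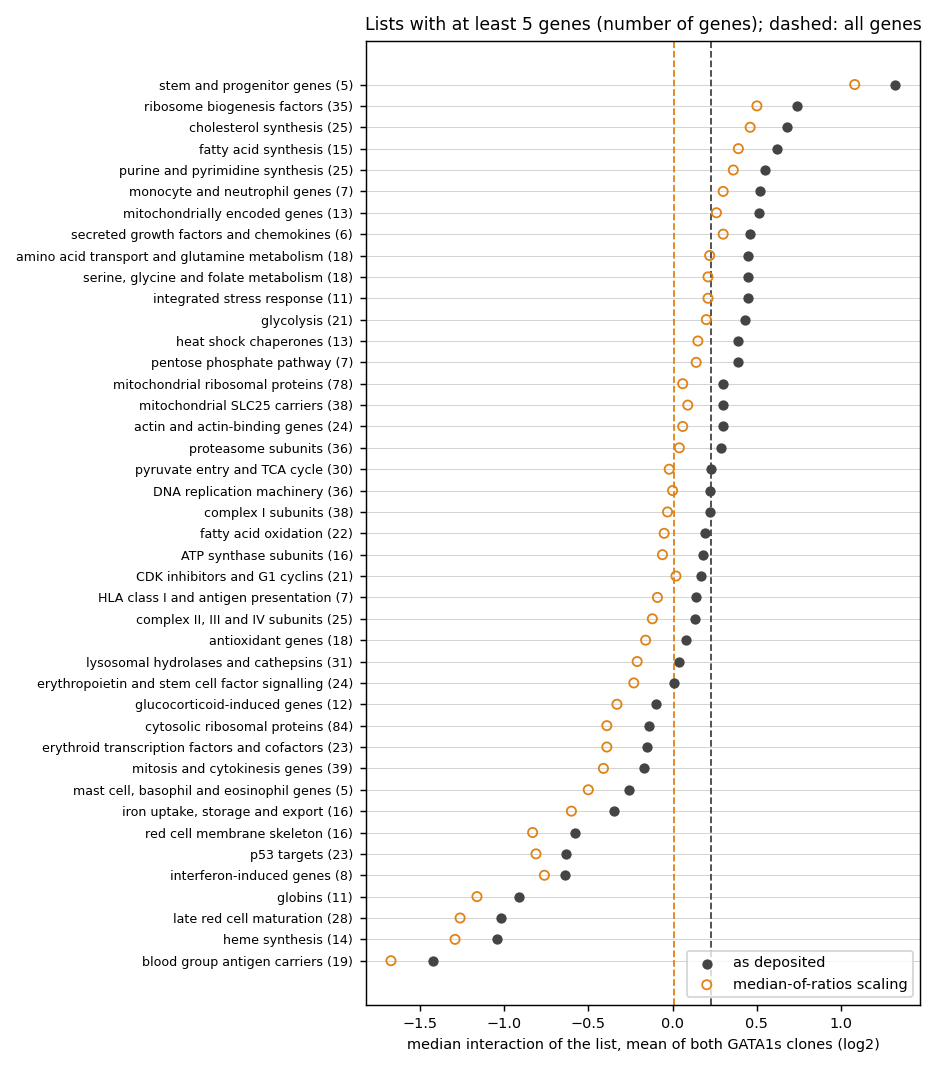
Median interaction on the log2 scale, mean of both GATA1s clones against FL (horizontal axis), of each list with at least 5 genes, with the number of genes in brackets. Filled points are deposited values and open points values after median-of-ratios scaling, with dashed lines at the medians of all genes, 0.23 and 0.01; blood group antigen carriers, heme synthesis, late maturation and globins are at the low end and stem and progenitor genes at the high end on both scales.

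Mitotic genes fell at day 4, in the median, in every clone. For each list of this paragraph, the shares of all genes were 35.8% higher and 12.6% lower as deposited, and 19.4% and 23.4% after rescaling. Of 39 mitosis and cytokinesis genes, 0 were higher and 8 lower in both clones (0 and 21 after rescaling), with a median of -0.17, and their median day-4 change was -1.83 in 1D5, -1.72 in 1KI9 and -1.59 in FL. NUSAP1, a spindle protein, fell to 22.6 ± 0.841 in 1D5, 20.7 ± 1.19 in 1KI9 and 47.4 ± 1.49 in FL at day 4 (mean ± SD, n = 3 each), against 80.3 ± 10.7 in 1D5, 64.7 ± 4.53 in 1KI9 and 91.9 ± 17.4 in FL in expansion, with an interaction of -0.85 in 1D5 and -0.67 in 1KI9. DNA replication genes had 10 higher and 0 lower of 36 (4 and 1 after rescaling), both below the shares of all genes as deposited, 35.8% higher and 12.6% lower. Of 21 CDK inhibitors and G1 cyclins, 5 were higher and 7 lower (2 and 7 after rescaling). CCND1, cyclin D1, fell in all clones and less with GATA1s, by 1.49 ± 0.16 (limma adjusted p = 2.48e-07). CDKN2C, the inhibitor p18, was at 22.3, 24.9 and 22 in 1D5, 21.5, 20.4 and 18 in 1KI9, and 45.9, 44 and 44 in FL at day 4. CDKN2C was at 36.2, 40.6 and 40.0 in 1D5, 39.6, 41.3 and 42.1 in 1KI9, and 23.9, 27.6 and 22.4 in FL in expansion. It rose in FL and fell in both GATA1s clones, without overlap between FL and the GATA1s clones in either condition, and the interaction was -1.57 ± 0.11 in 1D5 (limma adjusted p = 5.21e-09) and -1.84 ± 0.11 in 1KI9 (limma adjusted p = 5.00e-10). CDKN2D, the inhibitor p19, and CDKN1B, the inhibitor p27, were lower too, at -1.51 and -1.27 for the mean of both clones.

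Targets of p53 were lower for 10 and higher for 1 of 23 genes (14 and 1 after rescaling), with a median of -0.24 in 1D5 and -0.95 in 1KI9. For this and the next 2 lists, the shares of all genes were 12.6% lower and 35.8% higher as deposited, and 23.4% and 19.4% after rescaling. SESN1, a stress-induced inhibitor of mTORC1 signalling, was at -1.74 ± 0.11 (limma adjusted p = 9.80e-10), and the higher member was PLK3, a polo-like kinase, at 1.40 ± 0.11 (limma adjusted p = 8.59e-09). The classic targets CDKN1A and MDM2 had opposite signs in the clones and no shared call, with 0.69 in 1D5 and -0.95 in 1KI9 for CDKN1A, and 0.44 in 1D5 and -0.42 in 1KI9 for MDM2. Interferon-induced genes had 1 higher and 4 lower of 8 on both scales, with IRF7 at -1.54 ± 0.12 (limma adjusted p = 7.61e-09). Glucocorticoid-induced genes were of interest because dexamethasone was listed for expansion medium alone. Of 12, 3 were higher and 0 lower as deposited, both below the shares of all genes, and 2 and 3 after rescaling. TSC22D3 (-0.26 in 1D5 and -1.67 in 1KI9) and KLF9 (-0.24 in 1D5 and -0.79 in 1KI9) had no shared call as deposited and were called lower after rescaling. FKBP5, a cochaperone induced by glucocorticoids, fell to 192 ± 5.59 in 1D5, 180 ± 4.85 in 1KI9 and 50.5 ± 1.79 in FL at day 4 (mean ± SD, n = 3 each), against 378 ± 50.9 in 1D5, 465 ± 16.5 in 1KI9 and 234 ± 4.76 in FL in expansion, with an interaction of 1.22 ± 0.10 in 1D5 (limma adjusted p = 1.78e-08) and 0.82 ± 0.10 in 1KI9 (limma adjusted p = 1.24e-06).

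Other lists lay near or below the shares of all genes, 35.8% higher and 12.6% lower as deposited and 19.4% and 23.4% after rescaling, or held members that moved in both directions. Among 24 actin and actin-binding genes, 10 were higher and 3 lower (8 and 5 after rescaling), near those shares as deposited. ACTN1, which cross-links actin filaments, was at 29.2, 30.3 and 29.5 in 1D5, 35.2, 36.3 and 36.1 in 1KI9, and 5.91, 5.68 and 5.6 in FL at day 4. In expansion ACTN1 was at 29.1, 27.8 and 27 in 1D5, 36.8, 38.1 and 40.8 in 1KI9, and 20.1, 24.5 and 22.4 in FL. FL fell and neither GATA1s clone changed past the threshold, with an interaction of 1.87 ± 0.09 in 1D5 (limma adjusted p = 7.49e-11) and 1.69 ± 0.09 in 1KI9 (limma adjusted p = 1.77e-10). ACTG1, gamma actin, fell in all 3 clones and most in FL (1.63 in 1D5 and 0.97 in 1KI9). Among 31 lysosomal genes, 7 were higher and 3 lower (4 and 7 after rescaling), below those shares as deposited, where GUSB, beta-glucuronidase, was higher (0.95 in 1D5 and 1.17 in 1KI9) and CTSL, a cathepsin, lower (-1.31 in 1D5 and -2.42 in 1KI9). The antioxidant list of 18 had 4 higher and 6 lower on both scales. GCLC, the catalytic subunit of the enzyme that starts glutathione synthesis, rose in FL alone, with an interaction of -1.04 in 1D5 and -1.08 in 1KI9, and SOD1, the copper-zinc superoxide dismutase, rose in FL and fell in both GATA1s clones (-0.61 in 1D5 and -0.63 in 1KI9).

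Amino acid carriers split by gene. SLC36A1, a proton-coupled carrier of small amino acids, was at 5.22 to 6.0 in 1D5, 5.69 to 7.09 in 1KI9 and 29.4 to 30.4 in FL at day 4, against 10.4 to 12.2 in 1D5, 12.2 to 14.6 in 1KI9 and 13.2 to 20.5 in FL in expansion. It rose in FL and fell in both GATA1s clones (-1.72 in 1D5 and -1.78 in 1KI9). SLC6A9, a glycine transporter, rose in all 3 clones and most in FL (-1.04 in 1D5 and -1.01 in 1KI9), whereas SLC7A11, the cystine carrier, fell in all 3 and most in FL (0.94 in 1D5 and 0.87 in 1KI9). In the serine list PSPH, which completes serine synthesis, was higher (1.18 in 1D5 and 0.91 in 1KI9), and in the TCA cycle list, with 12 higher and 4 lower of 30 (5 and 4 after rescaling), near the shares of all genes as deposited (35.8% and 12.6%), IDH3A, a subunit of isocitrate dehydrogenase, was higher (1.01 in 1D5 and 1.17 in 1KI9). Of 38 mitochondrial carriers of the SLC25 family 18 were higher and 5 lower (12 and 6 after rescaling). SLC25A39, the mitochondrial glutathione importer, rose in all 3 clones and less with GATA1s (-0.90 in 1D5 and -1.26 in 1KI9), and so did SLC25A42, which carries coenzyme A (-1.18 in 1D5 and -1.69 in 1KI9). Among secreted factors GDF11, a ligand of the TGF-beta family, was at 10.7 to 11.1 in 1D5, 20.0 to 22.1 in 1KI9 and 2.58 to 3.19 in FL at day 4, against 4.85 to 7.37 in 1D5, 10.7 to 14 in 1KI9 and 4.3 to 5.76 in FL in expansion, and rose in both GATA1s clones while it fell in FL (1.26 in 1D5 and 1.31 in 1KI9).

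Summed markers of other blood cells differed with genotype as well as with condition, and single markers did not all follow the sums. The summed level of the monocyte and neutrophil markers, of which 6 of 8 were listed, was 329 to 350 in 1D5, 396 to 419 in 1KI9 and 43.4 to 46.9 in FL at day 4, against 33.0 to 46.9 in 1D5, 179 to 230 in 1KI9 and 7.56 to 36.9 in FL in expansion. Mast cell, basophil and eosinophil markers, 5 of 6 listed, summed to 181 to 189 in 1D5, 315 to 336 in 1KI9 and 351 to 369 in FL at day 4, and to 79.7 to 101 in 1D5, 122 to 156 in 1KI9 and 539 to 877 in FL in expansion. In FL most of this sum was PRG2 in both conditions. At day 4 most of it in 1D5 and in 1KI9 was TPSB2, with values of both genes given below. These sums therefore weigh different genes in FL and in the GATA1s clones, and are not levels of 1 kind of cell. Of the 6 monocyte and neutrophil markers, 3 in 1D5, 4 in 1KI9 and 2 in FL were at 1 or more at day 4. Among these markers, LYZ (1.49 in 1D5 and 0.58 in 1KI9) and CD68 (0.31 in 1D5 and -1.67 in 1KI9) had no interaction called in both clones. The megakaryocyte markers, 3 of 5 listed, reached 23.3 in 1D5, 17.7 in 1KI9 and 4.46 in FL at day 4, and in FL none was at 1 or more in expansion. Lymphocyte markers, 3 of 7 listed, summed to at most 0.560 in 1D5, 2.00 in 1KI9 and 0.530 in FL at day 4, and stromal markers, 3 of 6 listed, to at most 3.56 in 1D5, 1.57 in 1KI9 and 0.250 in FL. In the monocyte and neutrophil list, 2 of 7 genes were higher in both clones and 1 lower, on both scales. In the megakaryocyte list 0 of 3 were higher and 1 lower. The shares of all genes were 35.8% higher and 12.6% lower as deposited, and 19.4% and 23.4% after rescaling. ITGA2B, a megakaryocyte marker near 0 in expansion, was called lower (-0.45 in 1D5 and -0.95 in 1KI9). The part of such cells in the interactions was not tested. EVI2B, a membrane protein of myeloid cells, was at 22.1, 21.6 and 22.1 in 1D5, 44, 44.5 and 43.1 in 1KI9, and 0.49, 0.39 and 0.48 in FL at day 4. In expansion EVI2B was at 10.2, 3.95 and 8.44 in 1D5, 52.2, 41 and 41.4 in 1KI9, and 2.05, 5.39 and 4.86 in FL, and the interaction was 3.25 ± 0.35 in 1D5 (limma adjusted p = 5.38e-07) and 1.72 ± 0.35 in 1KI9 (limma adjusted p = 3.38e-04). CEBPA, a factor of granulocyte development, fell in all clones and more with GATA1s (-1.23 in 1D5 and -1.08 in 1KI9), a call that was lost with a pseudocount of 0.1 (mean -0.60, limma adjusted p = 0.133).

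The GATA1s clones differed from each other too. The day-4 change was higher in 1KI9 than in 1D5 for 432 genes (4.41%) and lower for 1504 (15.4%), and after rescaling for 1434 and 1006. Among the 4744 counted genes 873 were also called between the clones, and 126 of the 544 with at least 2-fold. TPSB2, a mast cell tryptase that shares reads with its near-identical copy TPSAB1 and is therefore uncertain, was at 144, 153 and 144 in 1D5, 275, 271 and 257 in 1KI9, and 43.2, 39.7 and 39 in FL at day 4. It was at 8.51, 3.89 and 4.91 in 1D5, 80.7, 65.2 and 61.2 in 1KI9, and 2.01, 3.48 and 2.65 in FL in expansion. It rose in every clone, most in 1D5, and 1KI9 minus 1D5 was -2.56 ± 0.25 (limma adjusted p = 1.79e-06). HBZ, the embryonic zeta globin, was at 199.6, 224 and 198 in 1D5, 315, 325 and 279 in 1KI9, and 22052, 22919.9 and 20422 in FL at day 4. HBZ was at 61.7, 98.7 and 206 in 1D5, 31.9, 33.4 and 35.7 in 1KI9, and 5756, 2304 and 2051 in FL in expansion, so its level in FL was far above both GATA1s clones in both conditions, and the difference between the clones in the day-4 change was 2.21 ± 0.47 (limma adjusted p = 0.00232).

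The rule that set genes aside as near 0 is a matter of degree. Just inside it were POU3F2 and RGS6, each with a lowest expansion mean of 1.00, and just outside it NBPF19 at 0.997 and DUSP4 at 0.993. Of the 1223 genes set aside, 472 had an interaction called in both clones, 247 higher and 225 lower. Among the 9792 genes kept, 3510 (35.8%) were higher and 1234 (12.6%) lower, so the genes set aside were split more evenly.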

How the data were processed

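The members and gene lists were chosen with earlier results of these data known. The authors deposited 1 table of 13358 genes. According to the submitters' processing notes, Trim Galore 0.60, STAR 2.7 and RSEM 1.31 were used with the builds hg38 and GRCh38.p12; settings, and how counting used strand, are not described. The expansion columns were deposited as TPM, per their sums, and the day-4 columns as a TPM-like signal whose further scaling is not described. The planned test assumed TPM throughout and was kept. The conditions may have been scaled separately, so every interaction is also a comparison across these parts of the table. Of the genes, 724 were listed at 0 in all expansion libraries and 312 in all day-4 libraries. Gene identifiers were matched to GENCODE 29 (13315 genes), which also named 312 listed without a symbol. Antisense and overlapping genes and near-identical copies are uncertain.

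Genes with at least 1 in at least 3 libraries entered, except 95 listed at 0 throughout a condition, which left 11015. On log2(value + 1), limma 3.58.1 under R 4.3.3 fitted a mean per group over the 18 libraries with a variance trend, with Benjamini-Hochberg adjustment at 0.05. The pseudocount of 1 understates changes of low genes. The fit was tested on simulated data. Named were GATA1, the 14 largest interactions each way by the smaller clone, the 6 largest of each class of opposite directions, up to 3 genes each way from each of 46 lists, and the 4 largest clone differences each way; other list members were added after their values were seen. Some results under this rule are not reported here. Alternatives were median-of-ratios and globin-free scaling, pseudocounts of 0.1 and 5, other filters and variance models, a replicate block, each clone fitted with FL alone, other limits for near 0 and leaving out each library. Depth is unknown, because TPM keeps none. Promoter windows came from RefSeq.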

Additional observations from a re-analysis of the deposited data

Results flagged for a closer look

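A difference in the day-4 change from FL was called in both GATA1s clones for 3510 genes higher and 1234 lower. Between the GATA1s clones, 1KI9 minus 1D5 was called higher for 432 genes and lower for 1504.

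Among genes not near 0 in expansion, the 4 largest differences upward were those of HBZ at 2.21 ± 0.47 (limma adjusted p = 0.00232), IGFLR1, a receptor of the tumour necrosis factor receptor type, at 1.31 ± 0.22 (limma adjusted p = 3.90e-04), PRG2, the eosinophil major basic protein, at 1.26 ± 0.26 (limma adjusted p = 0.00166), and BMP7, a bone morphogenetic protein, at 1.07 ± 0.16 (limma adjusted p = 1.04e-04). IGFLR1 fell in 1D5 to 3.11, 5.7 and 4.14 at day 4, against 10.1, 11.4 and 9.77 in expansion, and in 1KI9 it was at 10.6, 8.59 and 9.48 at day 4 and 9.14, 8.25 and 7.47 in expansion, without a called change. PRG2 fell in every clone, to 16 to 17.7 in 1D5, 29.1 to 31.6 in 1KI9 and 302 to 316 in FL at day 4, against 73.2 to 96.1 in 1D5, 49 to 88.2 in 1KI9 and 536 to 873 in FL in expansion. BMP7 also fell in every clone, to 2.23 to 2.93 in 1D5, 2.59 to 2.92 in 1KI9 and 4.16 to 5.15 in FL at day 4, against 9.05 to 10.5 in 1D5, 3.74 to 5.0 in 1KI9 and 24.1 to 31 in FL in expansion.

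Among the largest downward were those of IL1RL1, the interleukin-33 receptor, at -2.59 ± 0.28 (limma adjusted p = 5.60e-06), TPSB2 at -2.56 ± 0.25 (limma adjusted p = 1.79e-06), and PROCR, the endothelial protein C receptor, at -2.54 ± 0.49 (limma adjusted p = 0.00111). IL1RL1 rose in 1D5 to 5.03, 4.91 and 5.29 at day 4, against 1.97, 0.66 and 0.83 in expansion, and fell in 1KI9 to 3.22, 3.02 and 3.46 at day 4, against 10.2, 6.33 and 7.14 in expansion. PROCR fell in 1KI9 to 7.39, 7.79 and 7.1 at day 4, against 66.1, 51.5 and 43.9 in expansion, and did not change past the threshold in 1D5 or FL. All 3 were higher in 1KI9 than in 1D5 in expansion in every library.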

How the results depend on the processing

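With median-of-ratios factors the counts in both clones were 1901 higher and 2291 lower, those for the mean of both clones 2986 and 3036 (4610 and 1814 as deposited), those for 1D5 alone 2282 and 2807 (4458 and 1384), and the genes that rose in FL and fell in both GATA1s clones 189 (121). For 1KI9 minus 1D5 the higher count was 1434 with these factors and 778 without globins and mitochondrially encoded genes, against 432; without those genes 289 genes fell in FL and rose in both, against 192. A size of at least 1 on the log2 scale left 266 higher and 278 lower. Added after seeing the data, median-of-ratios without FL expansion replicate 1 gave 2046 and 2310.

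Leaving out 1 library at a time gave 3175 to 3840 higher and 1121 to 1294 lower in both clones, 4220 to 4843 and 1693 to 1879 for the mean, 4000 to 4769 and 1245 to 1437 for 1D5, 3758 to 4392 and 1874 to 2105 for 1KI9, 226 to 596 and 1156 to 1694 for 1KI9 minus 1D5, 105 to 130 genes that rose in FL and fell in both, and 156 to 209 that did the reverse. The higher count for 1KI9 minus 1D5 moved over 1.5 times without 1KI9 day 4 replicate 1 (267) or 2 (284), 1D5 expansion replicate 2 (243) or 1KI9 expansion replicate 1 (226). The cause of none of these shifts was tested. Same-numbered libraries of different groups share only a number: their deviations from the group means correlated at -0.13 to 0.42 over 45 pairs, with a median of 0.05. With the replicate number as a block, the counts in both clones were 3558 and 1258; the block moved no count by over 1.5 times.

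Of 209 named genes, 2 turned round with median-of-ratios scaling: GATA1, to -0.20 (limma adjusted p = 0.0245), and RPL19, to -0.01 (limma adjusted p = 0.935). In 10 settings a named gene's mean interaction lost its call: PSMB10, SDHB, ATP5MC2, ATP5MC3, RPS26 and VEGFA with that scaling, CEBPA and SPI1 with another pseudocount, and UQCR10 and PC without 1 FL library. In the other 5629 combinations of gene and setting the direction and call of the mean interaction held. This does not cover the call in both clones, which some named genes, such as MSMO1, lost with median-of-ratios scaling. Read depth is unknown, so no limit of detection can be given.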
